A study of Homo sapiens with 6 samples.

Results

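The 15 microRNA (miRNA) hairpins described here were taken from the 147 in the deposited table. They were chosen by 2 features: a low number in the miRNA name (under 540), which leaves mostly conserved miRNAs described early, and the entry Yes in a class headed 2-nt, which the table derives from the DICER-WT products. Hairpins of larger families, and many with strong responses, had been set aside with the scores known, so the range of the scores below is a description of a chosen set. The set stands for 15 miRNAs, from mir-9-3 to mir-505. Of these miRNAs 14 carry 3p in the table's miRNA name and miR-421 carries no arm.

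The cells were HCT116 DICER-KO, a human colorectal carcinoma line in which the DICER gene is knocked out. They were transfected with the plasmid pXG-DICER-WT, which restores full-length DICER, or with the DICER-delHelicase plasmid, whose product lacks the helicase domain. Each group had 3 samples, harvested 48 h after transfection, and small RNAs were sequenced. Both groups therefore lack the cells' own DICER and make it from a plasmid. The table gives 1 variation score per hairpin and construct, with no value per sample, so no spread between replicates exists and none of the differences below was tested. The scores hold no expression levels, so the cell line was not checked against marker genes, and the read depth behind a score is unknown.

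DICER is the RNase III enzyme that cuts a precursor miRNA near its apical loop and releases the miRNA duplex. Its cut on the 3′ arm fixes the 5′ end of the 3p miRNA and with it the seed, the bases by which the miRNA finds its targets. DICER is known to measure its cut from the ends of the precursor and also from the loop side, where a cut a fixed short distance from a loop or bulge is made more precisely (the loop-counting rule). The helicase domain lies close to the apical loop in DICER bound to a precursor. In the table a higher score means that the products of a hairpin were more variable, as far as the column name says, since none of the sources used here gives its formula.

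The first sequences show what the cut sets. RefSeq held a mature sequence for 14 of the 15 miRNAs (build GRCh38.p14), and each could be placed in its deposited hairpin. Mature miRNAs are given 5′ to 3′, with the seed (bases 2 to 8) in capitals. They are those of the 3 largest increases (mir-340, mir-9-3 and mir-140), of the decreases mir-421 and mir-501, of mir-502 as the near-identical partner of mir-501, and of the 2 lowest mean scores (mir-130b and mir-143).
miR-340-3p: uCCGUCUCaguuacuuuauagc
miR-9-3p: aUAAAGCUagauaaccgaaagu
miR-140-3p: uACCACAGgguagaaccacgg
miR-421: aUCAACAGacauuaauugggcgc
miR-501-3p: aAUGCACCcgggcaaggauucu
miR-502-3p: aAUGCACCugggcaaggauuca
miR-130b-3p: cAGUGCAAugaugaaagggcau
miR-143-3p: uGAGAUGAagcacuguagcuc
The seed AUGCACC was shared by miR-501-3p and miR-502-3p, and no other pair of the 14 shared a seed. These miRNAs differed at 2 positions, C9U and U22A, counted from the 5′ end and with the base of miR-501-3p first. Whether their reads were separable was not tested.

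The second set shows the structure 5′ of the cut, which is what the class turned out to follow. Each precursor runs from the RefSeq 5p miRNA start to the 3p miRNA end in the deposited hairpin. Capitals mark the 2 bases just 5′ of the first base of the 3p miRNA, so the cut lies directly after them.
mir-9-3: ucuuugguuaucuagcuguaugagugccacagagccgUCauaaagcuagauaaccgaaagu
mir-140: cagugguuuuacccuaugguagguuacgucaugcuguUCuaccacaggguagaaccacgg
mir-135b: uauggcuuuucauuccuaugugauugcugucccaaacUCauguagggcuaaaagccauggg
mir-130b: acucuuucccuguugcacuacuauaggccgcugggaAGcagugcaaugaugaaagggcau
mir-143: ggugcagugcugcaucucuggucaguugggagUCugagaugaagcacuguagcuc
mir-501: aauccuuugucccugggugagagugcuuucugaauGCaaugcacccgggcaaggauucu
mir-502: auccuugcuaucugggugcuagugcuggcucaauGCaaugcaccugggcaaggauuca
mir-340: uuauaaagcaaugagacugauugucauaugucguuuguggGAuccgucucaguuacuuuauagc
mir-22: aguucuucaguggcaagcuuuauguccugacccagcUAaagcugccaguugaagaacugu
No 5p miRNA of mir-421 was in the RefSeq table, so its 15 bases on either side of the cut are shown.
mir-421: augaaaaaaugaaUCaucaacagacauuaa

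The minimum free energy fold of the deposited hairpin put exactly 2 paired bases between the cut and the next unpaired base in 12 of the 14 members placed. Over the whole table this was the case in 54 of 70 hairpins of class Yes and 5 of 66 of class No, and in 57 and 3 when the cut was moved by the offset of the main DICER-WT end that the table lists. All 15 members have that offset at 0, as do 140 of all 147 hairpins. The class thus largely followed this 2-base distance, and since it chose the members, the distance is no independent finding about them. The fold did not give it for mir-22, with 4 paired bases, or for mir-340, with 7. Over all folds weighted by their energy, the third base 5′ of the cut was unpaired with a probability of 40.9% in mir-22 and 36.5% in mir-340. In the other 12 that probability lay between 58.4% (mir-372) and 99.9% (mir-501).

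The mir-9 copies share a miRNA but not a class. The 3 copies code for the same miR-9-3p, a miRNA typical of neural tissue, and only mir-9-3 has the entry Yes. Each window holds 15 bases on either side of the cut, with the 2 bases before the cut in capitals.
mir-9-3 (class Yes): ugccacagagccgUCauaaagcuagauaac
mir-9-1 (class No): ugguguggagucuUCauaaagcuagauaac
mir-9-2 (class No): aguguauuggucuUCauaaagcuagauaac
All have UC before the cut, and the loop side further 5′ differs at several bases between the copies. The third base is G in mir-9-3, unpaired with a probability of 99.8%, and U in the other copies, unpaired with 15.4% (mir-9-1) and 25.7% (mir-9-2). The folds gave stretches of 2, 3 and 4 paired bases in that order. The mir-9-3 hairpin scored 0.166 after rescue with DICER-WT and 0.320 after rescue with DICER-delHelicase, and the others scored 0.166 and 0.325. The copies differed by 0.000263 and 0.00447. Their reads come from the same mature sequence, so the scores cannot be assigned to one fold or the other.

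With DICER-WT the scores of the 15 members ran from 0 to 0.685, with a median of 0.116, against 0.0804 over all 147 hairpins. With DICER-delHelicase they ran from 0 to 0.628, with a median of 0.209, against 0.146 over all. The delHelicase score was the higher one in 10 members and the lower one in 5 (66.7% higher, where 72.1% of all hairpins were higher), so the share of members was near that of the table. The median change was 0.0220 (0.0261 over all), and changes ran from -0.0936 to 0.175. The exact 95% interval of that median over hairpins ran from -0.0177 to 0.126. It describes the spread over the chosen hairpins, which are not replicates of a construct, and tests no difference between the constructs. The median change depended on the members and the summary. It was 0.119 over the 8 members with a mean score above the median of all hairpins, 0.0448 without mir-501 and mir-502, and 0.0420 as a mean. No member changed by 0.2 or more, as 34 of all hairpins did. Many strong responders had been set aside, and whether that set this range was not tested. Of the 15 class No hairpins left after the same exclusions, 2 changed by 0.2 or more.

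On the fold scale, 5 members (33.3%) scored at least 1.5 times higher with DICER-delHelicase, against 61.2% of all hairpins. Another 3 (20.0%) scored at least 1.5 times lower, against 14.3%. These counts include mir-130b, listed at 0 with DICER-WT, and mir-143, listed at 0 with DICER-delHelicase, for which no fold can be given. Many hairpins with strong responses had been set aside with the scores known, and whether that shaped these shares was not tested.

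The largest increase was that of mir-340. It scored 0.0679 after the WT rescue and 0.243 after the delHelicase rescue, which is 3.58 times higher. It ranked 33rd among the changes of all hairpins. Positions here and below are those of the deposited hairpins in GRCh38.p14, derived from the RefSeq positions of the mature miRNAs. The hairpin lies in an intron of RNF130 (chr5:180015293-180015407, minus strand), and it is the member with the longest paired stretch before the cut. The mir-9-3 hairpin came next, in an intron of MIR9-3HG, a long non-coding RNA (chr15:89368007-89368116, plus strand), with the scores given above. For mir-335, in an intron of the imprinted gene MEST (chr7:130496101-130496214, plus strand), the scores were 0.116 and 0.228, a ratio of 1.97. All 3 had DICER-WT scores of 0.166 or less.

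A second group was variable with either construct. The mir-140 hairpin, in an intron of WWP2 (chr16:69933071-69933190, plus strand) and known for its role in cartilage, scored 0.501 with DICER-WT and 0.628 with DICER-delHelicase. That of mir-455, another cartilage miRNA, in an intron of the collagen gene COL27A1 (chr9:114209424-114209539, plus strand), scored 0.377 and 0.503. For mir-135b, known to be raised in colorectal tumours and lying in an intron of LEMD1 (chr1:205448292-205448408, minus strand), the scores were 0.288 and 0.354. The score of mir-505 was 0.685 with DICER-WT, the 4th highest in the table, and 0.614 with DICER-delHelicase. Thus the 4 members with the highest DICER-WT scores were also the 4 highest with DICER-delHelicase, and their ratios stayed between 0.896 and 1.33. The cut of mir-505 could not be placed. In mir-140, mir-455 and mir-135b it lies 2 bases from a bulge or internal loop. The same holds for mir-130b and mir-143, which scored low (below), so this distance came with high as well as low scores.

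The third group scored low with either construct. The mir-130b hairpin, in an exon of the non-coding transcript AP000553.1 (chr22:21653294-21653395, plus strand), was listed at 0 with DICER-WT and at 0.0120 with DICER-delHelicase. The mir-143 hairpin, in an exon of CARMN, a long non-coding RNA (chr5:149428908-149429033, plus strand) and best known from smooth muscle, went the other way, from 0.0177 to a listed 0. For mir-22, in an exon of MIR22HG (chr17:1713893-1713997, minus strand), the scores were 0.0171 and 0.0618, which is 3.62 times higher but a change of only 0.0448. The scores of mir-501 were 0.0483 and 0.0288, and those of mir-502 were 0.0380 and 0.0313. Both lie in introns of CLCN5 on the X chromosome (chrX:50009712-50009815, plus strand, and chrX:50014588-50014693, plus strand).

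Of the remaining members, mir-210, which is induced by hypoxia and lies in an intron of MIR210HG (chr11:568079-568208, minus strand), had nearly the same score with both constructs, 0.0886 and 0.0902. The mir-372 hairpin, of a cluster typical of embryonic stem cells and outside other annotated genes on its strand (chr19:53787880-53787966, plus strand), scored 0.187 and 0.209. The largest decrease was that of mir-421, in an intron of FTX on the X chromosome (chrX:74218367-74218471, minus strand), from 0.164 to 0.0706, a ratio of 0.430.

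The kind of unpaired element 5′ of the 2 paired bases divided these 12 members by direction, with mir-143 as an exception. In mir-421, mir-501 and mir-502 that element was the apical loop itself, of 9 bases in each, and all 3 scored lower with DICER-delHelicase, with changes of -0.00679, -0.0195 and -0.0936 (mir-502, mir-501 and mir-421). In the other 9 it was a bulge or an internal loop with 1 to 3 unpaired bases on the 3′ side. More pairs followed before the apical loop, except in mir-372, where only 1 pair did. Of these 9, 8 scored higher (mir-9-3, mir-140, mir-455, mir-335, mir-135b, mir-372, mir-130b and mir-210) and mir-143 scored lower, with a median change of 0.0653. The 3 smallest increases were those of mir-210 (0.0016), mir-130b (0.0120) and mir-372 (0.0220). The share of all hairpins that scored higher, 72.1%, is the level to read these counts against. The score of mir-9-3 cannot be assigned to its own fold. The mir-9-2 copy codes for the same miRNA, and there the next unpaired element is the apical loop. The contrast can be read in the precursors: in mir-501 and mir-502 the GC before the cut closes the loop, whereas in mir-135b the UC before the cut follows a bulge of 2 bases. The fold of the 30 bases around the cut, where a bracket is a paired base and a dot an unpaired one, shows this for mir-421 and mir-135b.
mir-421 fold: .(((.........)))))))))))))))..
mir-135b fold: ((......)))..))))))))))..)))))
In mir-340 and mir-22, where the paired stretch was longer, the next unpaired element was also the apical loop, and both scored higher. The split was noticed after the scores were seen, miR-501-3p and miR-502-3p are near-identical, and no test was made of it.

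The same count was then made in the other class Yes hairpins with 2 paired bases before the cut. Of 29 hairpins (25 miRNAs) with a bulge or internal loop there, 25 scored higher and 4 lower with DICER-delHelicase (86.2% higher, and 21 of 25 miRNAs), where 72.1% of all hairpins were higher. Of 13 hairpins with the apical loop there, 6 scored higher, 5 lower and 2 were equal. The median change was 0.0288 in the former and 0 in the latter, but changes in the latter spread from -0.405 to 0.508, so an apical loop at this distance did not go with a lower score throughout. These counts depended on the fold. Folding only the precursor, where the 5p miRNA was known, gave 14 higher and 4 lower of 18 with a bulge or internal loop. With an apical loop it gave 2 higher and 3 lower of 7. The centroid structure, which averages over folds, gave 21 higher and 4 lower of 25 with a bulge or internal loop. With an apical loop the centroid counts were 9 higher and 5 lower of 16, so more of these scored higher than lower. In the members the split also rested on the fold chosen. In their centroid structures mir-140 and mir-372 had the apical loop at this distance, and both scored higher. That made 3 lower and 2 higher with an apical loop, and 6 of 6 higher with a bulge or internal loop.

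The internal loops were small in most members. A single mismatch, with 1 unpaired base on each side, lay before the 2 paired bases in mir-140, mir-455, mir-335 and mir-210, and 2 unpaired bases on each side in mir-9-3 and mir-372. In mir-130b it was 3 bases on the 3′ side against 1 on the 5′ side. A bulge was found in mir-135b (2 bases) and in mir-143 (1 base). The 2 bases before the cut were UC in 5 members (mir-9-3, mir-140, mir-135b, mir-143 and mir-421), where 13.2% of the 136 hairpins placed had UC, and GC in mir-501 and mir-502. No other pair of bases occurred in more than 1 member. The first base of the 3p miRNA was A in 7 of the 14, U in 4, C in 2 and G in 1, and it was itself paired in 11. Over the 136 hairpins placed it was A in 43, U in 50, C in 35 and G in 8. It was paired in 65 of 70 hairpins of class Yes and 53 of 66 of class No. The stretch between the annotated 5p and 3p miRNAs was 12 to 20 bases long in the 13 members with both arms in RefSeq (median 16, the same as over the 89 such hairpins in the table).

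The 15 hairpins under the same limits on the number but of class No (14 miRNAs) were set beside the members. Only 1 of them, mir-378a, had exactly 2 paired bases before the cut, and 6 had 3. The third base 5′ of the cut was unpaired with a median probability of 15.4%, against 97.1% in the members. Over all hairpins placed, these medians were 14.5% in class No and 97.4% in class Yes. Both structural differences thus come with the class that chose the sets and are no independent finding. With DICER-WT the class No hairpins had a median score of 0.0862 and a maximum of 0.223 (mir-374b). That maximum ranked 32nd among the DICER-WT scores of all 147 hairpins, and 4 members exceeded it. With DICER-delHelicase their median was 0.125. The score was higher with DICER-delHelicase in 12 and lower in 3, with a median change of 0.0447. Of the 15, 9 (60.0%) scored at least 1.5 times higher, near the 61.2% of all hairpins, against 5 of the 15 members (33.3%). Over all hairpins of a class this share was 58.9% in class Yes and 63.5% in class No, a smaller gap than between these sets. The 12 and the 9 count both mir-9-1 and mir-9-2, which have the same miRNA and the same scores. The 5 members include mir-9-3, which codes for that miRNA too. Scores at least 1.5 times lower were found in 1 class No hairpin and 3 members (14.3% of all hairpins). Both sets were left over after the same exclusions, and no test was made of the difference between them.

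At the upper limit of the name number, the last members are mir-502 and mir-505, and the next class Yes hairpins beyond it are mir-548o-2 (0 and 0.00282) and mir-576 (0.0993 and 0.480).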

How the data were processed

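Small RNA libraries came from HCT116 DICER-KO cells, 3 samples per construct. The submitters' processing notes name cutadapt, Bowtie2, bedtools and GRCh38, with no settings. The authors deposited 1 variation score per hairpin and construct (294 lines), in a column named Global_variation per the file headers. None of the sources used here says how 3 samples became 1 score, so no test between groups was possible. Another deposited column, the main DICER-WT 5′ end, holds whole numbers per the file headers, read here as an offset in bases.

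The delHelicase score minus the WT score was taken per hairpin. The 3p miRNA start was found by exact match of the RefSeq mature sequence (the 3′-most match), in 136 of 147 hairpins. Hairpins were folded with RNAfold (ViennaRNA 2.7.2), and the paired bases in a row before the start were counted, a step tested on 180 made-up hairpins, all recovered. Host genes are from GENCODE on the same strand. A hairpin counted as past the fold at 1.5 times, and 1 with a score of 0 counted when the other score was above 0.

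The members and the lists were chosen with earlier results of these data known. All members are named. Sequences were shown for the 3 largest increases, 2 of the 3 largest decreases (for mir-505 only the scores are given), the 2 lowest mean scores, and members that show a structure named in the text, mir-502 among them. The fold, its kind of loop and the comparison of the mir-9 copies were chosen after the scores were seen.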

Additional observations from a re-analysis of the deposited data

How the results depend on the processing

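The median change over the members, 0.0220, lay between 0.0170 (single-hairpin miRNAs) and 0.119 (mean scores above the median of all hairpins) over 7 alternatives (also a mean, 1 value per miRNA, offset 0, and, added after the data were seen, without mir-501 and mir-502 or only with 2 paired bases before the cut). Its interval over hairpins holds no error between samples. Of the 10 higher members, 8 changed by at least 0.02 and 6 by at least 0.05, and 2 lower members did so at either limit. Over all hairpins, 78 of the 102 that changed by at least 0.02 were higher, and 68 of 85 at 0.05. At 2 times instead of 1.5 times, 3 members scored higher instead of 5, and 2 lower instead of 3. With 0.01 added to both scores the counts were 5 and 3. The shares of all hairpins at 2 times, or with 0.01 added, are not given here, so no level stands beside these counts. The 2-base stretch was found in 11 of 14 members in the centroid structure (without mir-143) and in 11 of 13 when the precursor alone was folded. With an apical loop the centroid structure gave 2 higher members instead of 0, and with a bulge or internal loop 0 lower instead of 1. In the other class Yes hairpins the precursor fold gave 3 lower and 2 higher of 7 with an apical loop, and 14 higher of 18 otherwise. The centroid structure gave 5 lower and 9 higher of 16 with an apical loop there, and 21 higher of 25 otherwise. A deposited structure was not used, so that comparison was not run. No paired analysis was possible because no value belongs to a single replicate. For the same reason no replicate was left out. Depth is unknown, so scores near 0 carry no limit.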
